A study of Mus musculus with 151 samples.

Results

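This report follows 8 genes that make, inactivate, sense and answer glucocorticoid hormones: *Hsd11b1*, *Hsd11b2*, *H6pd*, *Nr3c1*, *Nr3c2*, *Fkbp5*, *Tsc22d3* and *Sgk1*. The members were chosen by name from the 55291 genes of a raw count matrix of single mouse cochlear cells. *Hsd11b1* itself was picked because it was off in inner hair cells (IHCs) and on in induced outer hair cells (iOHCs), so its values in that comparison are a description, and the other 7 genes were added for their place in the same pathway. All 8 were present in the matrix.

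The study asked what becomes of an IHC, the sensory cell that transmits sound to the auditory nerve, when it loses the T-box transcription factor Tbx2. Full-length cDNA was made by Smart-seq from hand-picked Tdtomato+ cells of C57BL/6 mice, 1 library a cell. The P14_WT IHCs (55 cells, postnatal day 14) and P30_WT IHCs (50 cells, postnatal day 30) were of the genotype vGlut3-P2A-iCreER/+; Ai9/+, and the P14_iOHCs (46 cells, postnatal day 14) also carried Tbx2 flox/-. All mice, wild-type ones included, received tamoxifen shortly after birth, so that the tamoxifen-dependent Cre of the *Slc17a8* (vGlut3) locus acted in IHCs and switched on the Ai9 reporter. The other *Tbx2* allele of the iOHC mice was null in the germline, so the cells around the iOHCs differed in genotype from those around the wild-type IHCs too. The iOHCs were picked for their smaller size.

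Corticosterone, the main glucocorticoid of mice, circulates together with an inert 11-keto form. The enzyme 11β-HSD1, encoded by *Hsd11b1*, sits in the endoplasmic reticulum and turns the inert form back into active hormone, using NADPH that hexose-6-phosphate dehydrogenase (*H6pd*) makes in the same compartment. 11β-HSD2 (*Hsd11b2*) catalyses the opposite reaction and shields the mineralocorticoid receptor in aldosterone-responsive cells. Active hormone binds the glucocorticoid receptor (*Nr3c1*) and the mineralocorticoid receptor (*Nr3c2*), which enter the nucleus and act on target genes such as *Fkbp5*, *Tsc22d3* and *Sgk1*. In the inner ear, glucocorticoids are known as a treatment for some forms of sudden hearing loss, and the receptor is known to be present in several cochlear cell types.

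The start sites of *Hsd11b1*, which was without counts in IHCs and abundant in iOHCs, and of *Sgk1*, a textbook receptor target, are shown so that the receptor's motif can be seen where it is and where it is not. RefSeq (GRCm38.p6) gave start-site windows for 6 of the 8 members. The *Hsd11b1* stretch is chr1:193242361-193242610 on the minus strand, inside the annotated span of the gene, and the *Sgk1* stretch is chr10:21993640-21993889 on the plus strand, before 1 of the gene's 6 listed start sites. Each line gives the 250 bases before the start, 5′ to 3′, and capitals mark the palindrome bound by the receptor.
Hsd11b1: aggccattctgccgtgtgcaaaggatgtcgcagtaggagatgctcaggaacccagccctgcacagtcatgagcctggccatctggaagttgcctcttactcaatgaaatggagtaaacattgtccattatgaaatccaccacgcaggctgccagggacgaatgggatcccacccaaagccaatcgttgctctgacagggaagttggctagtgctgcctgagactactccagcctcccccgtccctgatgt
Sgk1: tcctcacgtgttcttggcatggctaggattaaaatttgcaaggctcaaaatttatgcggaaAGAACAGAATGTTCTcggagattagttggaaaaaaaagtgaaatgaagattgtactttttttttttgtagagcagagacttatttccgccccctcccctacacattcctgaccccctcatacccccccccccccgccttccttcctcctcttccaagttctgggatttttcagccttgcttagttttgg

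The motif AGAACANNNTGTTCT, a palindrome that reads the same on both strands, occurred in 3 of 32851 windows (0.00913%), and 1 of these was the *Sgk1* window, where it covered bases -189 to -175 from the start. Its half-site AGAACA, searched on both strands and contained in the palindrome, occurred in 19% of windows. The *Hsd11b1* window held neither the palindrome nor the half-site, nor the T-box core AGGTGT, which occurred on either strand in 13.7% of windows. These matches describe letters only. Absence from a window of this length says nothing about sites elsewhere.

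The labels were checked first. *Tbx2*, the targeted gene, averaged 260 ± 127 CPM (counts scaled to 1000000 per cell; SD, n = 55 cells) in P14_WT IHCs and 69.3 ± 87.4 CPM (n = 46) in P14_iOHCs, with a count in 45 of the 46 iOHCs. A count over the whole gene does not test the floxed exon. *Slc26a5*, which encodes prestin, the motor protein of OHCs, lay between 142 and 2787 CPM in the iOHCs, and none of the 105 wild-type cells exceeded 4.01 CPM. *Slc17a8*, the vesicular glutamate transporter of IHCs, had a mean of 123 ± 194 CPM in the iOHCs and 1230 ± 317 CPM in the P14_WT IHCs. Total counts ran from 4326416 to 25035444 per cell and formed a lower set (51 cells) and an upper set (100 cells), with cells of all 3 groups in both. Because the labels tie no cell to a mouse, each group counted as 1 sample. No test was possible, and every difference given here compares these cells, not replicated animals. SDs are spreads between cells. Intervals of summed counts cover counting error only, and those of shares take cells as independent draws. Neither covers spread between mice.

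*Hsd11b1* (chr1:193221634-193264075, minus strand, GRCm38, 10 merged exons) was listed at 0 in all 55 P14_WT IHCs and had 1 count in 1 of the 50 P30_WT IHCs. In the 46 P14_iOHCs the lowest value was 0, the median 318 and the highest 1465 CPM. It had a count in 44 iOHCs, or 95.7% (exact 95% interval 85.2 to 99.5%), while for the 0 of 55 P14_WT IHCs the same exact interval reached up to 6.49% and the limit of 3 cells 5.45%. The 2 iOHCs without a count overlapped the wild-type cells, and the other 44 lay above every P14_WT IHC. The picture was the same in both sets of totals, with a mean of 389 ± 346 CPM in the 12 iOHCs of the lower set and 501 ± 448 CPM in the 34 of the upper set.

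The mean in iOHCs was 472 ± 423 CPM (SD, n = 46), or 1888 times the mean limit of 3 counts per library in P14_WT IHCs (0.250 CPM). That limit treats reads amplified without molecular identifiers as separate counts, so 1888 is no lower bound on the fold between cells. The sparse *H6pd*, with a count in 2 P14_WT IHCs, reached 456 counts in 1 of them. The group as a whole held 351121 counts, or 495 CPM of the summed reads (Poisson 95% interval 494 to 497). Over the P14_WT IHCs together, with a count of 0 among 791238321, the limit of 3 counts was 0.00379 CPM. The Poisson 95% interval reached up to 0.00466 CPM. Against the single count of the P30_WT IHCs, the ratio of summed CPM was 324579, with a counting interval of 58255 to 12820222. That interval treats reads amplified without molecular identifiers as separate counts, so it bounds no fold between cells. The ratio only describes the on and off pattern for which the gene was picked.

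Within the iOHCs the gene was not uniform. Beside the 2 cells without a count, 2 cells stayed under 10 CPM, 5 lay between 10 and 100 CPM, 29 between 100 and 1000 CPM and 8 at 1000 CPM or more. By mean CPM in the iOHCs it ranked 269 of the 55291 genes, and by mean counts per exon length 516 of 53292. The 4 lowest cells, all under 1 CPM, still had 142 to 514 CPM of *Slc26a5*. In 2 of the 4 the IHC genes were high as well: 1 had 935 CPM of *Slc17a8*, 264 CPM of *Tbx2* and no count of *Ikzf2*, and the other had 722 CPM of *Slc17a8*, 427 CPM of *Tbx2* and the lowest *Slc26a5* of all iOHCs.

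**Figure D1:**
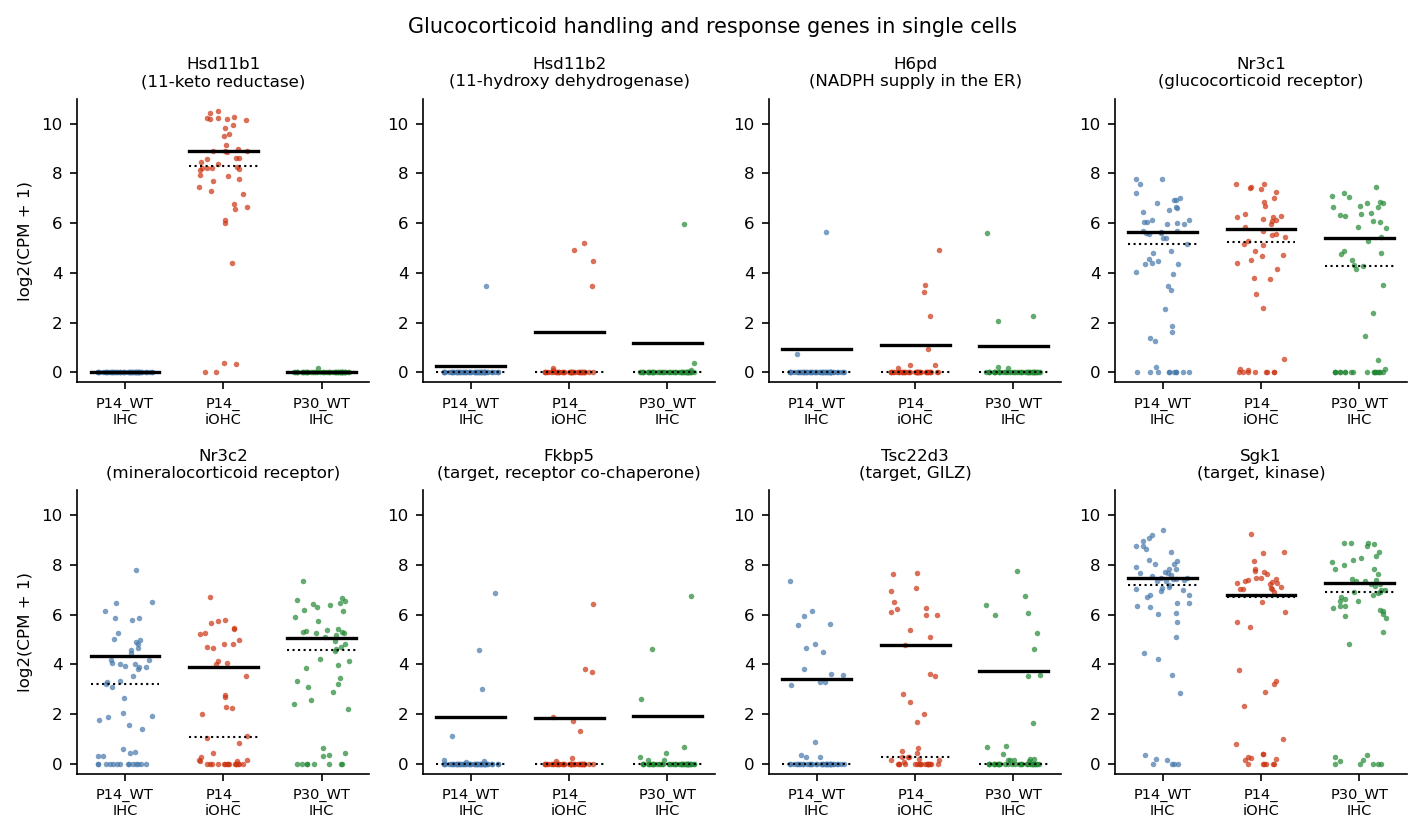
Each point is 1 cell, with log2(CPM + 1) on the vertical axis and the 3 groups on the horizontal axis; the solid bar is log2 of the group mean + 1 and the dotted bar the same for the median. *Hsd11b1* separates 44 of 46 P14_iOHCs from every P14_WT IHC, whereas the 3 groups overlap over nearly their whole range in the other 7 genes.

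*Hsd11b1* was accompanied by little of its cofactor enzyme. *H6pd* (chr4:149979475-150009023) had a mean of 1.16 ± 4.66 CPM in P14_iOHCs, with a median of 0 and a highest cell of 29 CPM. In P14_WT IHCs the mean was 0.903 ± 6.61 CPM and in P30_WT IHCs 1.09 ± 6.69 CPM. Counts of *H6pd* appeared in 8 of 46 iOHCs, 2 of 55 P14_WT IHCs and 5 of 50 P30_WT IHCs. All 8 of those iOHCs also had *Hsd11b1*, as did 44 of the 46 iOHCs in all. Thus 36 of the 44 iOHCs with *Hsd11b1* showed no *H6pd* count, at a depth where 3 counts equal 0.131 to 0.495 CPM.

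*Hsd11b2* (chr8:105518755-105523988), the inactivating enzyme, was also sparse. It reached 35.5 CPM in the highest iOHC, with a mean of 2.08 ± 7.38 CPM and a count in 6 of 46 cells. A single P14_WT IHC had counts (10.0 CPM), and 3 of the P30_WT IHCs did, the highest at 61.3 CPM. The median was 0 in all 3 groups, so the difference of 1.38 on the log2(mean CPM + 1) scale between iOHCs and P14_WT IHCs rested on a few cells.

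Per length, as TPM (counts per base of exon, scaled to 1000000 per cell), *Hsd11b1* stood at 243 ± 218 TPM in iOHCs, *Hsd11b2* at 2.47 ± 8.66 TPM and *H6pd* at 0.499 ± 2.02 TPM. The activating enzyme was therefore the most abundant of the 8 members in these cells. *Sgk1* followed at 50.8 ± 59.8 TPM, then *Nr3c1* at 15.3 ± 16.1, *Tsc22d3* at 14.5 ± 28.3 and *Nr3c2* at 4.72 ± 7.24 TPM. The step from *Sgk1* up to *Hsd11b1* was the largest in this order but not the only one of several-fold, and even there the cells overlapped. *Nr3c1* and *Tsc22d3* differed by far less than their spread between cells, and so did *H6pd* and *Fkbp5* (0.634 ± 3.24 TPM).

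**Figure D2:**
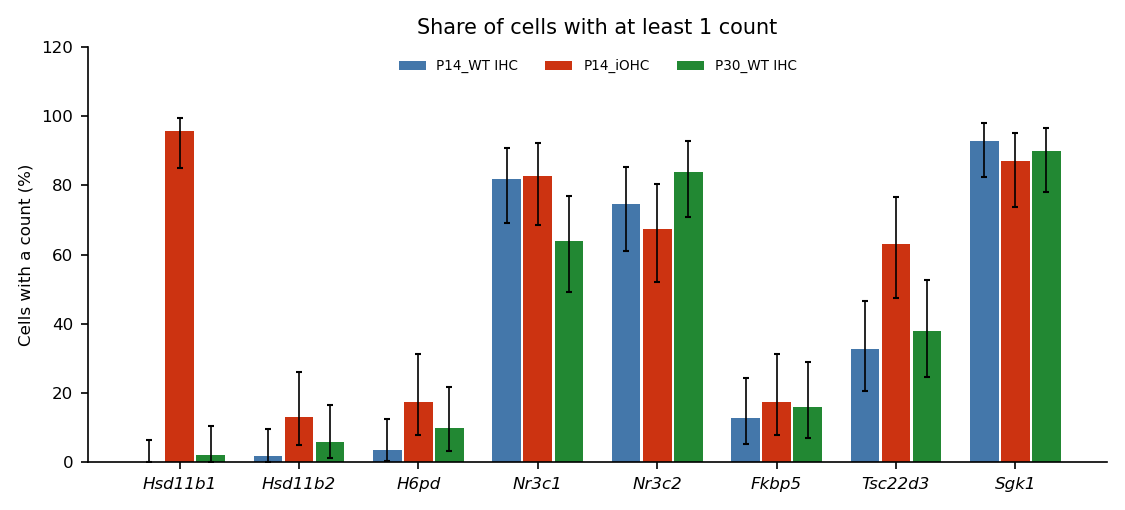
Bars show the share of cells with at least 1 count of each member in the 3 groups. The lines are exact 95% binomial intervals that take cells as independent draws and leave out spread between mice. *Hsd11b1* stands at 95.7% of P14_iOHCs against 0% and 2% of the wild-type groups, and *Tsc22d3* at 63.0% of P14_iOHCs against 32.7% of P14_WT IHCs.

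The receptors were present in all groups. *Nr3c1* (chromosome 18) had a median of 36.4 CPM in P14_iOHCs (range 0 to 192), 35 CPM in P14_WT IHCs (0 to 218) and 18.6 CPM in P30_WT IHCs (0 to 174). Its mean differed by 0.13 on the log2 scale between iOHCs and P14_WT IHCs, and an iOHC was the higher cell in 52.1% of all pairs of cells. Of the 44 iOHCs with *Hsd11b1*, 37 also had a count of *Nr3c1*. Both transcripts were thus found in 80.4% of the iOHCs. Since nearly every iOHC had *Hsd11b1*, this share follows from that of *Nr3c1* alone. *Nr3c1* had a count in 82.6% of iOHCs, 81.8% of P14_WT IHCs and 64% of P30_WT IHCs.

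*Nr3c2* (chr8:76899442-77245012) had a mean of 13.8 ± 21.5 CPM in iOHCs, 19.2 ± 35.1 CPM in P14_WT IHCs and 32.6 ± 36.1 CPM in P30_WT IHCs. The medians were 1.11, 8.15 and 23 CPM in the same order. P30_WT IHCs were the higher cell in 63.7% of pairs with P14_WT IHCs, a log2 difference of 0.73. The ranges of all 3 groups overlapped widely, and a count was found in 41 of 55, 31 of 46 and 42 of 50 cells of the P14_WT IHCs, iOHCs and P30_WT IHCs.

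Some related nuclear receptors were low in iOHCs. Estrogen receptor β (*Esr2*) was listed at 0 in all 46 iOHCs, against a mean of 3.36 ± 11.2 CPM in 55 P14_WT IHCs and 8.10 ± 24.4 CPM in 50 P30_WT IHCs. *Esrra*, an orphan receptor related to the estrogen receptors, had means of 13.2 ± 25.5 and 12.8 ± 22.3 CPM in iOHCs and P14_WT IHCs and of 1.36 ± 5.18 CPM in P30_WT IHCs.

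The chaperones and coregulators through which the receptors work were all detected, and none of the 19 listed genes passed 4-fold in either direction, in iOHCs (10.4% of all compared genes did) or between the ages (2.99%). Their median log2 difference between iOHCs and P14_WT IHCs was -0.11. Among all 14609 compared genes, 7.23% were over 4-fold higher and 3.17% over 4-fold lower in iOHCs, and the median was 0.09. *Hsp90aa1*, which encodes the chaperone that holds the receptor ready for hormone, had 2976 ± 976 CPM in iOHCs and 3444 ± 1052 CPM in P14_WT IHCs, and 5730 ± 1529 CPM in P30_WT IHCs. *Fkbp4*, the co-chaperone that helps move the receptor to the nucleus, had 291 ± 158 CPM, 390 ± 176 CPM and 204 ± 148 CPM in the same order.

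The 3 target genes among the members had no common direction. *Fkbp5* (chr17:28399094-28517527), a co-chaperone that lowers the receptor's affinity for hormone, had means of 2.54 ± 12.7 CPM in iOHCs, 2.69 ± 16 CPM in P14_WT IHCs and 2.75 ± 15.4 CPM in P30_WT IHCs. The median was 0 in each group, and 8, 7 and 8 cells had counts. The highest cells reached 84.8, 117 and 107 CPM, so the 3 groups covered the same range.

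*Tsc22d3* (chrX:140539528-140600659), which encodes the anti-inflammatory protein GILZ, had a mean of 26.6 ± 50.4 CPM in iOHCs, 9.53 ± 26.1 CPM in P14_WT IHCs and 12.4 ± 36.9 CPM in P30_WT IHCs. It had a count in 29 of 46 iOHCs and 18 of 55 P14_WT IHCs, and an iOHC was the higher cell in 64.7% of pairs. The log2 difference was 1.39, with 3.04 among cells of low total and 0.96 among the rest. The median in iOHCs was only 0.202 CPM, and the highest cells, 201 CPM in iOHCs and 162 CPM in P14_WT IHCs, lay close together. Among the 30 iOHCs whose supporting-cell score (the mean log2(CPM + 1) of 16 marker genes) did not exceed that of every P14_WT IHC, the mean was 18.5 ± 44.6 CPM and the difference 0.89.

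*Sgk1* (chr10:21882184-21999903), a kinase that regulates ion channels and transporters and whose window holds the palindrome, was lower in iOHCs. The mean was 109 ± 125 CPM in iOHCs, 175 ± 159 CPM in P14_WT IHCs and 153 ± 140 CPM in P30_WT IHCs. Medians were 105, 144 and 118 CPM, with highest cells of 603, 671 and 477 CPM. An iOHC was the higher cell in 36.9% of pairs with P14_WT IHCs, and the log2 difference of -0.68 was within the spread between cells.

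Among the members, then, 1 of 8 was over 4-fold higher in iOHCs and none over 4-fold lower, and that gene was the one picked for it. At 2-fold, 3 of 8 were higher (*Hsd11b1*, *Tsc22d3* and *Hsd11b2*) and none lower, where 18.6% and 12% of all compared genes were. Between P30_WT and P14_WT IHCs, a comparison that shares its P14_WT IHCs with the one of the iOHCs, 5 members were compared, since *Hsd11b1*, *Hsd11b2* and *H6pd* were under a mean of 1 CPM. None of the 5 passed 2-fold, and the background was 9.01% higher and 9.41% lower. At 4-fold the background was 1.37% higher and 1.62% lower.

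A wider list of 30 genes known to be induced by glucocorticoids, the 3 targets included, was read in the same way. Of the 23 that were compared, 5 were over 4-fold higher in iOHCs (21.7%, against 7.23% of all compared genes) and none over 4-fold lower, and the median log2 difference was 0.84. At 2-fold, 9 were higher and 2 lower, where 18.6% and 12% of all compared genes were. Among cells of low total 5 of 22 were over 4-fold higher and 1 lower, where 11.1% and 10.6% of all compared genes were. Among the rest 8 of 23 were higher and none lower, where the background was 8.21% and 3.72%. Only *Dusp1*, *Fam107a* and *Rgs2* passed 4-fold in both. The share of all compared genes that did so in both was not computed, so this overlap has no background. The remaining 7 (*Angptl4*, *Arl4d*, *Cebpd*, *Mt2*, *Pck1*, *Tat* and *Zbtb16*) were too low to compare.

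The 5 genes were *Rgs2*, *Fam107a*, *Pdk4*, *Dusp1* and *Mt1*. *Rgs2*, a regulator of G-protein signalling, had 35.5 ± 60.6 CPM in iOHCs and 2.25 ± 9.54 CPM in P14_WT IHCs, a log2 difference of 3.49. Its median in iOHCs was 0.111 CPM and the highest cell 229 CPM, against 62.7 CPM in P14_WT IHCs. *Fam107a* had 132 ± 164 CPM against 20.2 ± 52.4 CPM (2.65), with counts in 35 of 46 and 16 of 55 cells.

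*Dusp1*, a phosphatase that switches off MAP kinases, had 271 ± 449 CPM in iOHCs, 55 ± 75.9 CPM in P14_WT IHCs and 48.9 ± 61.2 CPM in P30_WT IHCs. *Mt1*, a metal-binding metallothionein, had 95.2 ± 127, 20.2 ± 51.6 and 27.2 ± 61.3 CPM, and its log2 difference was 0.30 among cells of low total and 3.46 among the rest. *Pdk4*, a kinase that holds back pyruvate oxidation, was low throughout, at 4.71 ± 13.8 CPM in iOHCs and 0.171 ± 1.27 CPM in P14_WT IHCs. The groups overlapped in each of the 5 genes.

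The 2 genes over 2-fold lower, *Bcl6* and *Hif3a*, were named after their values were seen. *Bcl6*, a transcriptional repressor, had 14.4 ± 22.9 CPM in iOHCs, 36.3 ± 58.3 CPM in P14_WT IHCs and 86.8 ± 72.3 CPM in P30_WT IHCs, and *Hif3a* was under 3 CPM in each group. By mean over the P14 cells *Cdkn1a* and *Nfkbia* were the most abundant genes of the list, and neither was higher in iOHCs: *Nfkbia*, the inhibitor of NF-κB, had 202 ± 267 CPM against 207 ± 124 CPM in P14_WT IHCs, and *Cdkn1a*, a cell cycle inhibitor, had 186 ± 212 CPM against 287 ± 147 CPM. *Cdkn1a* was also the only gene of the list past 4-fold between the ages, at 66.7 ± 91.0 CPM in P30_WT IHCs (log2 difference -2.09). Of the 20 compared there, none was over 4-fold higher, where 1.37% of all 14097 compared genes were. The median was 0.18, against -0.01 for all compared genes.

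**Figure D3:**
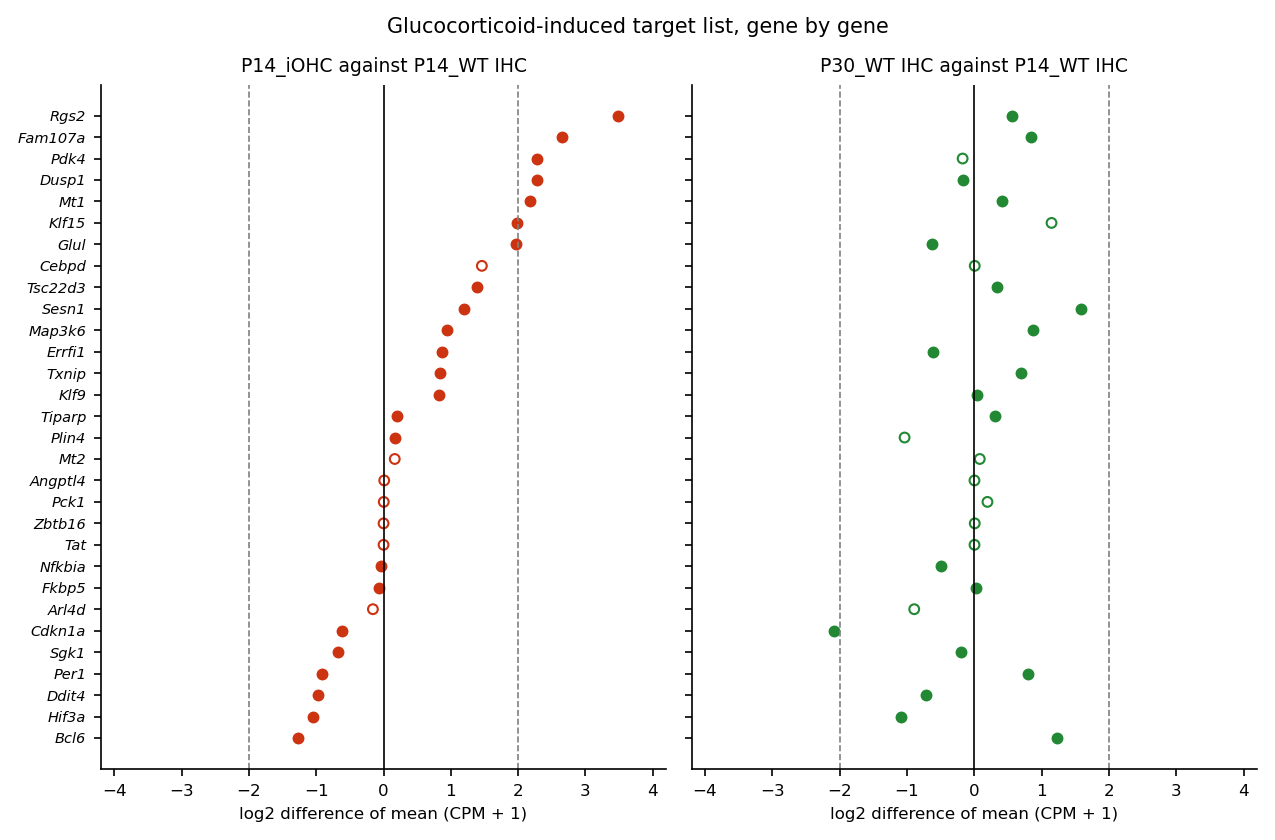
Each row is a gene of the glucocorticoid-induced list, ordered by the left panel; the horizontal axis is the log2 difference of the group means with 1 CPM added, dashed lines mark 4-fold, and open circles are genes whose mean over both groups was under 1 CPM. In iOHCs 5 filled points lie past the right dashed line and none past the left, while *Fkbp5* sits at -0.06 and *Sgk1* at -0.68; between the ages *Cdkn1a* alone is past 4-fold.

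Markers of supporting cells, the cells that surround hair cells, differed between the groups as well. Of 16 such genes, 13 were compared and 7 were over 4-fold higher in iOHCs (7.23% of all compared genes were), among them the connexin *Gjb6* (607 ± 905 against 87.6 ± 193 CPM) and the matrix gene *Epyc* (412 ± 1283 against 10.2 ± 68.8 CPM). Their summed level ran from 2883 to 22072 CPM over the iOHCs, from 4331 to 11261 CPM over the P14_WT IHCs and from 2182 to 10000 CPM over the P30_WT IHCs, and *Prox1* was at 0 in both P14 groups. In 16 of the 46 iOHCs the supporting-cell score was above the highest score of a P14_WT IHC. Markers of other cells did not move together. None of 4 compared neuronal markers passed 4-fold and 2 were over 2-fold lower. None of 3 blood markers passed 2-fold, and the 1 endothelial marker compared was over 2-fold lower. Over 4-fold higher were 2 of 3 compared for the stria vascularis, 1 of 2 for glia and 2 of 6 for mesenchyme. Of those 6, 1 was over 2-fold lower, and the collagen-binding gene *Lum* had 339 ± 718 against 49.1 ± 120 CPM. Genes known to respond to cell dissociation were higher too: 6 of 18 compared were over 4-fold higher in iOHCs and none lower, with a median log2 difference of 1.65, against 7.23% of all compared genes higher. Between the ages 2 of 16 compared genes of that list were over 4-fold higher and 7 over 2-fold, with a median of 0.97. Among all compared genes 1.37% and 9.01% were. *Dusp1* belongs to the dissociation list as well as to the target list.

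*Hsd11b1* was as high without those 16 cells. Its mean was 494 ± 440 CPM in the remaining 30 iOHCs, of which 29 had a count, and 430 ± 400 CPM in the 16. In the 30 cells, 3 of 22 compared targets (13.6%) were over 4-fold higher, against 5.13% of all compared genes in the same cells, namely *Klf15*, *Mt1* and *Rgs2* (log2 differences 2.46, 2.28 and 2.32). *Klf15*, a transcription factor named after its values were seen, had 3.15 ± 13.4 CPM over all iOHCs, with a count in 7 cells, and a difference of 1.98 there. *Fam107a* stood at 1.44 and *Dusp1* at 1.07, and *Pdk4* was at 0.0728 ± 0.258 CPM, with the difference turning to -0.13. *Dusp1* had a mean of 559 ± 654 CPM in the 16 cells and 117 ± 143 CPM in the 30. The median log2 difference of the list was 0.58 in the 30 cells. The part of supporting-cell RNA or of the dissociation response in the target list was not tested.

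The supply of NADPH was examined beyond *H6pd*. None of 16 compared genes passed 4-fold in iOHCs, where 10.4% of all compared genes did. Over 2-fold, 3 were higher, a share near the 18.6% of all compared genes. *Slc37a4*, the transporter that carries glucose 6-phosphate, the substrate of *H6pd*, into the endoplasmic reticulum, had 18.9 ± 42.5 CPM in iOHCs and 6.45 ± 17.9 CPM in P14_WT IHCs, with counts in 29 of 46 and 9 of 55 cells. *Slc37a1*, a related phosphate-linked antiporter, had 31.6 ± 46.2 CPM against 8.40 ± 20.1 CPM. *G6pdx*, the cytosolic counterpart of *H6pd* and the entry enzyme of the pentose phosphate pathway, had 267 ± 224 CPM against 131 ± 92.7 CPM. These 3 genes were the ones over 2-fold higher, and *Slc37a4*, *Slc37a1* and *Nnt* were named after their values were seen. *Nnt*, the mitochondrial transhydrogenase, was over 2-fold lower (15.1 ± 34.1 against 36.6 ± 46.9 CPM). Malic enzyme (*Me1*, 397 ± 197 against 407 ± 176 CPM) and transaldolase (*Taldo1*, 353 ± 171 against 361 ± 161 CPM), the most abundant of the list, were nearly equal in mean.

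11β-HSD1 belongs to the short-chain dehydrogenases, and 38 genes of that family were present. Of 30 compared, 4 were over 4-fold higher and 1 lower in iOHCs, including *Hsd11b1*, which was picked for it, beside a background of 7.23% higher and 3.17% lower. *Hsd17b6*, which oxidises and interconverts steroids and retinoids, had 109 ± 220 CPM in iOHCs and 9.58 ± 54.8 CPM in P14_WT IHCs. *Dhrs7*, a reductase of steroids and retinoids, had 41.6 ± 51.2 against 5.10 ± 17.6 CPM, and *Hsd17b11* 5.40 ± 16.8 against 0.326 ± 2.40 CPM. The gene over 4-fold lower was *Rdh10*, which makes retinaldehyde from retinol, at 8.75 ± 25.5 CPM in iOHCs, 68.0 ± 89.0 CPM in P14_WT IHCs and 84.6 ± 110 CPM in P30_WT IHCs.

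In the 30 iOHCs within the supporting-cell range, *Dhrs7*, *Hsd17b11* and *Rdh10* kept their direction past 4-fold (log2 differences 2.13, 2.12 and -3.13). *Hsd17b6* did not, with a difference of -0.48. *Hsd11b1* stood at 8.95 in those cells. Between P30_WT and P14_WT IHCs, none of 27 compared dehydrogenases passed 4-fold, where 2.99% of all compared genes did.

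Genes that make or clear steroids from cholesterol were mostly silent. Only 6 of 24 were high enough to compare. *Cyp11a1*, the side-chain cleavage enzyme that begins steroid synthesis, was at 0.0104 ± 0.0704 CPM in iOHCs and 3.48 ± 18.6 CPM in P14_WT IHCs, where 6 cells had a count. *Srd5a1*, a steroid 5α-reductase that also clears glucocorticoids, was well expressed in all groups, at 458 ± 315 CPM in iOHCs, 479 ± 217 CPM in P14_WT IHCs and 397 ± 189 CPM in P30_WT IHCs. *Tspo*, a mitochondrial cholesterol-binding protein, had 56.4 ± 82.1, 18.5 ± 29.4 and 44.3 ± 58.6 CPM.

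Sodium transport genes known as targets of the mineralocorticoid receptor had a median log2 difference of 0.03 between iOHCs and P14_WT IHCs over 10 compared genes. The epithelial sodium channel subunits *Scnn1b* (22.7 ± 62.6 against 0.631 ± 3.61 CPM) and *Scnn1g* (counts in 6 of 46 iOHCs and none of 55 P14_WT IHCs) were over 4-fold higher, 2 of the 10, where 7.23% of all compared genes were. Both were near 0 without the 16 iOHCs of high supporting-cell score, with differences of -0.46 and 0.01. *Atp1b1*, the β1 subunit of the sodium pump, had 155 ± 109 CPM in iOHCs and 311 ± 143 CPM in P14_WT IHCs, and *Stk39*, a kinase of chloride cotransporters, had 353 ± 196 and 321 ± 132 CPM.

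Upstream of the hormone, *Crhbp*, which binds corticotropin-releasing hormone, was detected in 9 of 46 iOHCs, 41 of 55 P14_WT IHCs and 37 of 50 P30_WT IHCs. Its means were 8.84 ± 22.2, 54.2 ± 63.4 and 74.5 ± 95.7 CPM. Of 11 genes of the stress hormone axis, only 2 were compared between iOHCs and P14_WT IHCs. *Crhbp* was over 4-fold lower, where 3.17% of all compared genes were, and the other was within 2-fold. *Mmp9*, a gelatinase and the most abundant gene of a list of inflammatory genes that glucocorticoids repress, had a count in 2 of 46 iOHCs (1.42 ± 6.93 CPM), in 37 of 55 P14_WT IHCs (29.5 ± 39.2 CPM) and in 20 of 50 P30_WT IHCs (15 ± 27.7 CPM). The mean log2(CPM + 1) of 6 immune-cell markers was also highest in P14_WT IHCs, at 0.548 against 0.0549 in iOHCs and 0.0627 in P30_WT IHCs. Their summed level ran up to 118, 67.2 and 72.4 CPM in the same order. Only 2 of the 6 were compared between iOHCs and P14_WT IHCs, and they differed in direction. *C1qb*, a complement gene of macrophages, had 26.4 ± 34.2 CPM in P14_WT IHCs, 0.208 ± 1.36 CPM in iOHCs and 2.35 ± 11.7 CPM in P30_WT IHCs. *Csf1r* had means of 0.648 CPM in P14_WT IHCs and 1.53 CPM in iOHCs. The part of immune-cell RNA in the *Mmp9* values was not tested. Of the 12 genes of that list, 2 were compared, so the list as a whole could not be read.

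The circadian clock, which glucocorticoids help to set, was followed in 15 genes. All 15 were compared between iOHCs and P14_WT IHCs, and the median log2 difference was -0.41. At 4-fold 0 were higher and 1 lower in iOHCs, where 7.23% and 3.17% of all compared genes were. At 2-fold 2 were higher and 3 lower, where 18.6% and 12% of all compared genes were. The gene over 4-fold lower was *Npas2*, a partner of Bmal1. It had 1.68 ± 7.19 CPM in iOHCs, 20.2 ± 30.8 CPM in P14_WT IHCs and 27.2 ± 35.8 CPM in P30_WT IHCs. *Nr1d1*, a repressor of the clock, had 69.1 ± 78.7 against 176 ± 106 CPM. *Cry2*, a clock repressor that also binds the glucocorticoid receptor, had 54 ± 60.6 against 142 ± 105 CPM. Over 2-fold higher were *Bhlhe40*, another clock repressor (66.7 ± 102 against 22.5 ± 44.7 CPM), and *Hlf* (10.7 ± 24.2 against 3.31 ± 13.5 CPM), a clock-controlled factor named after its values were seen. The hour at which cells were collected is not given in the sources used here, so time of day and group cannot be told apart.

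Across the 46 iOHCs, *Hsd11b1* was set against OHC genes and glucocorticoid genes. These values describe cells that share mice, dissociation and sequencing, and no p is given. Pearson's r of log2(CPM + 1) was 0.62 with *Slc26a5* (Spearman's rho 0.55), 0.61 with *Ocm*, which encodes the OHC calcium buffer oncomodulin (0.46), and 0.54 with *Lbh* (0.57). With *Tbx2* it was -0.41 (-0.44). When the 2 cells with the most extreme *Hsd11b1* values were left out, r was 0.61 with *Slc26a5*, 0.59 with *Ocm*, 0.58 with *Lbh* and -0.39 with *Tbx2*. The value with *Ikzf2*, a transcription factor of OHCs, rested on those 2 cells (0.45 with them and 0.12 without). The 4 iOHCs with the lowest *Hsd11b1* lay apart from the rest, and at least 2 of them stayed in. Leaving out 2 cells therefore cannot show whether the values with *Slc26a5*, *Ocm*, *Lbh* and *Tbx2* rest on these 4. Values without all 4 were not computed.

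With the other members r lay between -0.21 and 0.22: 0.22 with *Nr3c1*, -0.21 with *Tsc22d3*, -0.17 with *Sgk1* and 0.03 with *Fkbp5*. Among the 12 cells of low total and the 34 of high total it was 0.46 and 0.13 with *Nr3c1* and -0.39 and -0.15 with *Tsc22d3*, beside 0.55 and 0.66 with *Slc26a5* and 0.31 and 0.60 with *Lbh*. With the mean over the 30 glucocorticoid-induced genes it was -0.20 (rho -0.28), with 0.02 and -0.28 in the same cells. With the supporting-cell score it was -0.07 and with the log2 total count 0.00. *Fkbp5* and the other sparse genes have no count in most cells, which limits what such a value can show.

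**Figure D4:**
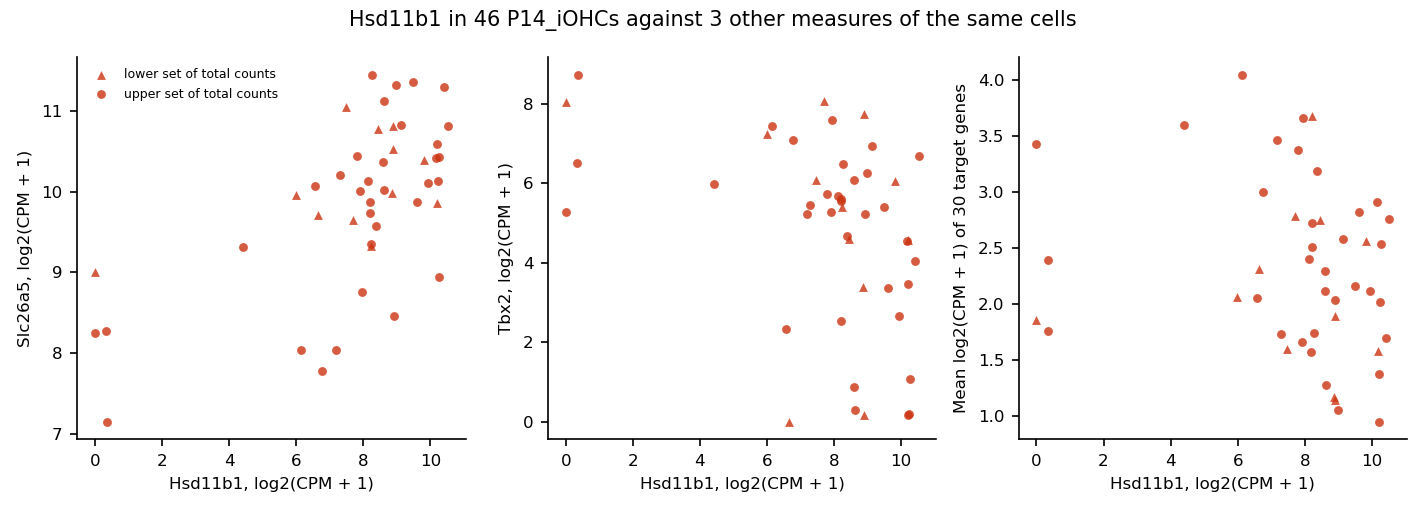
Each point is 1 of the 46 P14_iOHCs, with log2(CPM + 1) of *Hsd11b1* on the horizontal axis and, from left to right, *Slc26a5*, *Tbx2* and the mean of the 30 target genes on the vertical axis, all in log2(CPM + 1); triangles are cells with low totals. *Hsd11b1* goes up with *Slc26a5* (r = 0.62) and down with *Tbx2* (-0.41), with r = -0.20 for the targets; 4 cells lie near 0.

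Over the cells of all 3 groups together the genes most like *Hsd11b1*, among 4738 with a count in at least 80% of the iOHCs, were *Slc26a5* (r = 0.94), *Ikzf2* (0.94), *4930558C23Rik* (0.93), *Lbh* (0.90), *Phldb1* (0.90) and *Meikin* (0.90). These values reuse the on and off pattern for which *Hsd11b1* was picked, so genes with the same pattern lead the order. Like *Hsd11b1*, *Meikin* was at 0 in all 55 P14_WT IHCs and had a mean of 42.8 CPM in iOHCs. Within the 46 iOHCs the most alike were *Atp8a2* (0.65), *Acer2* (0.63), *Slc26a5* (0.62), *Atp2b2* (0.61), *Ocm* (0.61) and *Sri* (0.61). *Atp2b2* encodes the calcium pump of the hair bundle and *Sri* the calcium-binding protein sorcin.

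The coding genes around *Hsd11b1* were low and had no count in most iOHCs. Their means were higher in iOHCs, as were those of 54.7% of all compared genes. Their values without the 16 iOHCs of high supporting-cell score were not computed. *Lamb3* (chr1:193207699-193343878, plus strand), a laminin chain whose span encloses *Hsd11b1*, had 4.79 ± 16 CPM in iOHCs, with a count in 11 of 46 cells, and 0.0123 ± 0.0642 CPM in P14_WT IHCs. *G0s2* (chr1:193272161-193273217), an inhibitor of lipolysis, was the nearest coding gene outside *Hsd11b1* on the side of its start. It had 5.99 ± 19.2 CPM in iOHCs, with a count in 7 of 46 cells, and no count in either wild-type group. *Traf3ip3*, on the other side, had 5.48 ± 17.2 CPM in iOHCs (a count in 11 of 46 cells) and 1.37 ± 7.04 CPM in P14_WT IHCs (4 of 55). The highest iOHC reached 89.8 CPM of *Lamb3*, 95.5 CPM of *G0s2* and 97.2 CPM of *Traf3ip3*. No exon of *Lamb3*, of the antisense gene *4930570N18Rik* or of *Gm38118* shared a base with an exon of *Hsd11b1*, although their spans overlap it. Whether reads were counted by strand is not given in the sources used here, and its part in these values was not tested.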

How the data were processed

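Single cells of 3 groups were sequenced after Smart-seq amplification, without molecular identifiers. According to the submitters' processing notes and the study's methods, reads were checked with FastQC 0.11.9, trimmed with Trimmomatic 0.39, aligned with HISAT2 2.1.0 to GRCm38 (mm10) and counted per gene with HTSeq 0.10.0; StringTie 1.3.5 is also named. The deposited values were raw counts, made by the authors and not normalized.

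Counts were divided by each cell's total to give CPM, and groups were compared by log2 of mean CPM + 1, for genes that averaged 1 CPM or more over the 2 groups; 4-fold was the threshold. The labels name no mouse, so each group was 1 sample and no test was made, in place of the cell-level DESeq2 test of the study. Sums have Poisson and shares exact Clopper-Pearson 95% intervals. The limit of 3 was taken per library and, for *Hsd11b1* in P14_WT IHCs, also over the summed total and over cells. Without molecular identifiers the Poisson intervals and limits cover counting error only, and the intervals of shares take cells as independent draws. TPM used union exon lengths of GENCODE M21 (53292 of 55291 genes). The calculation of differences was checked on simulated counts with known folds. No 2 cells of a group held identical values. Named were the 8 members, genes past 4-fold (at most 6 a list), up to 4 of the most abundant of each list, the genes next to *Hsd11b1* and those most like it. The members and lists were chosen with earlier results of these data known. Alternatives were other scalings (edgeR 4.0.16 TMM and DESeq2 1.42.0 size factors), summaries, pseudocounts, minimums and subsets of cells. Python 3.11.15, scipy 1.17.1 and R 4.3.3 were used.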

Additional observations from a re-analysis of the deposited data

How the results depend on the processing

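No paired analysis was possible because the groups share no mouse or replicate number that pairs cells and no result comes from a test. Cells of 1 group may come from few mice, and their number is not given, so spread between animals is unknown. Depth limits the sparse members: for *H6pd*, *Hsd11b2* and *Fkbp5*, a cell without a count may hold transcript that was not captured. The log2 difference of *Hsd11b1*, 8.89, was 12.21 with a pseudocount of 0.1 CPM and 6.58 with 5 CPM, since its comparison group was at 0, and stayed positive in every alternative. The percentage of P30_WT IHCs with a count of *Hsd11b1*, 2%, was 0 when 5 counts were required, after thinning every cell to 4326416 counts, and in the upper set of totals.

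*Sgk1* was lower in iOHCs in 15 of 15 alternatives (log2 differences of -1.55 to -0.45) and *Tsc22d3* higher in 15 of 15 (0.27 to 3.04). *Nr3c1* had the same sign in 14 of 15 (-0.20 to 0.48), *H6pd* in 11 of 15 (-0.37 to 1.09) and *Fkbp5* in 10 of 15 (-0.28 to 0.25). Among iOHCs within the supporting-cell score of P14_WT IHCs, *Pdk4* (-0.13), *Hsd17b6* (-0.48) and *Scnn1b* (-0.46) turned to lower. The median log2 difference of all compared genes moved from 0.09 to 0.21 in iOHCs with DESeq2 size factors, and from -0.01 to 0.34 between the ages (-0.17 with the mean of log2 values).

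Among glucocorticoid-induced targets, the 5 genes over 4-fold higher in iOHCs were 3 with a pseudocount of 5 and within the supporting-cell score, 8 in the upper set and 9 at 2-fold. None was lower, against 2 with medians, 1 in the lower set and 2 at 2-fold. Between the ages 0 were higher, against 1 with DESeq2 size factors or the mean of log2 values, 4 with medians, and 2 in the upper set or at 2-fold. The 1 lower became 0 with TMM or DESeq2 factors, and 2 with medians, in the lower set or at 2-fold.

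Over all genes, the 1056 higher in iOHCs became 660 with medians, 379 with the mean of log2 values, 1665 and 354 with pseudocounts of 0.1 and 5, 676 with a minimum of 5 CPM, 1595 in the lower set and 2711 at 2-fold. The 463 lower became 1059 with medians, 891 and 155 with those pseudocounts, 283 with the higher minimum, 1524 in the lower set and 1753 at 2-fold. Between the ages the 193 higher became 406 with DESeq2 size factors, 35 with the mean of log2 values, 609 and 17 with the pseudocounts, 78 with the higher minimum, 767 and 438 in the lower and upper sets and 1270 at 2-fold. The 229 lower became 1161 with medians, 609 and 39 with the pseudocounts, 111 with the higher minimum, 903 and 445 in the sets and 1327 at 2-fold. The cause of these moves was not tested.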
